A study of Homo sapiens with 4 samples.

Results

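The insulin-like growth factor binding proteins IGFBP1 to IGFBP7, the receptor IGF1R and the docking proteins IRS1 and IRS2 were followed in lung cancer cells treated with embelin, a plant benzoquinone. They are 10 of the 31379 names on the array. A probe was taken as a member's when the array's annotation gave it that gene name or a RefSeq transcript of that gene, which found 17 of 50238 probes. The rule itself used no measured value. The scanner software placed 13 of the 17 well above background on both control arrays or both embelin arrays. These 13 were tested, and they cover 9 of the 10 genes. The 3 probes of IGFBP5 and 1 of the 3 probes of IGF1R were too dim to be tested.

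The study asked which transcripts change early in A549 cells, a line derived from a human lung adenocarcinoma, when embelin starts to kill them. The controls were untreated cells (n = 2) and the treated cells received 15 µM embelin for 4 h (n = 2). All cells had been grown in MEM with 10% FBS and were moved 12 h earlier to MEM with 2% FBS, so that both groups were measured in low serum. RNA of each sample was copied from its poly(A) tail, labelled with Cy3 and hybridized to 1 array of a single slide. Nothing in the sources used here says that the replicates came from separate cultures, so that each p measures the spread between these samples, which may be technical. The controls are described only as untreated, and a solvent control was not analysed here. A change in the share of cells and a change in RNA per cell cannot be told apart in such samples.

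Insulin-like growth factors circulate and act while bound to a family of secreted proteins, which carry them, keep them from their receptor and release them after cleavage by proteases. Free ligand activates IGF1R, which phosphorylates IRS1 and IRS2, and these recruit the PI3 kinase that activates AKT. AKT holds FOXO transcription factors out of the nucleus, and IGFBP1 is a classical gene of insulin withdrawal, fasting and cell stress that FOXO factors can switch on. IGFBP3 is the main carrier in serum, and it is known to slow growth and to favour apoptosis in several cell types.

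The probes of the 3 genes whose values differed most are shown because the result of each gene rests on the stretch of transcript that its probe reads. They are copied 5′ to 3′ from the scanner files. All are 60 bases long, and the first 30 of each are printed.
IGFBP1 probe: tttctgctcttccaaagctcctgcgtctgt
IGFBP3 probe 1: agaatatggtccctgccgtagagaaatgga
IGFBP3 probe 2: agcctccacattcagaggcatcacaagtaa
IRS1 probe: tttttcctgtaagacaataggccatgttaa
The probe of IRS1 has 35% G and C over its whole length, against 45% in both IGFBP3 probes and 41.7% in that of IGFBP1. The coordinates of the probes were not used here, and which part of each transcript they read was not determined.

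After embelin IGFBP1 rose 16-fold and IRS1 fell 4.51-fold, while IGFBP2, IGFBP4, IGFBP6 and IGFBP7 differed by at most 1.11-fold. IGFBP3 was 5.54-fold and 6.5-fold higher by its probes, which missed the adjusted threshold in the test over all probes. With Benjamini-Hochberg adjustment over all probes, limma called 1 of the 13 member probes higher and 1 lower at an adjusted p under 0.05. Over all 26145 probes tested, 0.83% were called higher and 0.249% lower. At the threshold the study used, a 2-fold difference with an unadjusted p under 0.05, here taken from limma, 3 member probes were higher (IGFBP1 and both probes of IGFBP3) and 1 was lower (IRS1), against 4.58% and 3.78% of all probes. By the methods' t-test 3 of these 4 passed, without probe 1 of IGFBP3. In 5 of the 13 the embelin arrays lay on 1 side of both control arrays, beside 49.7% of all probes with 4 values, a share no higher than the background. The median difference of the 13 was -0.07 on the log2 scale and that of all kept probes was -0.04.

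**Figure D1:**
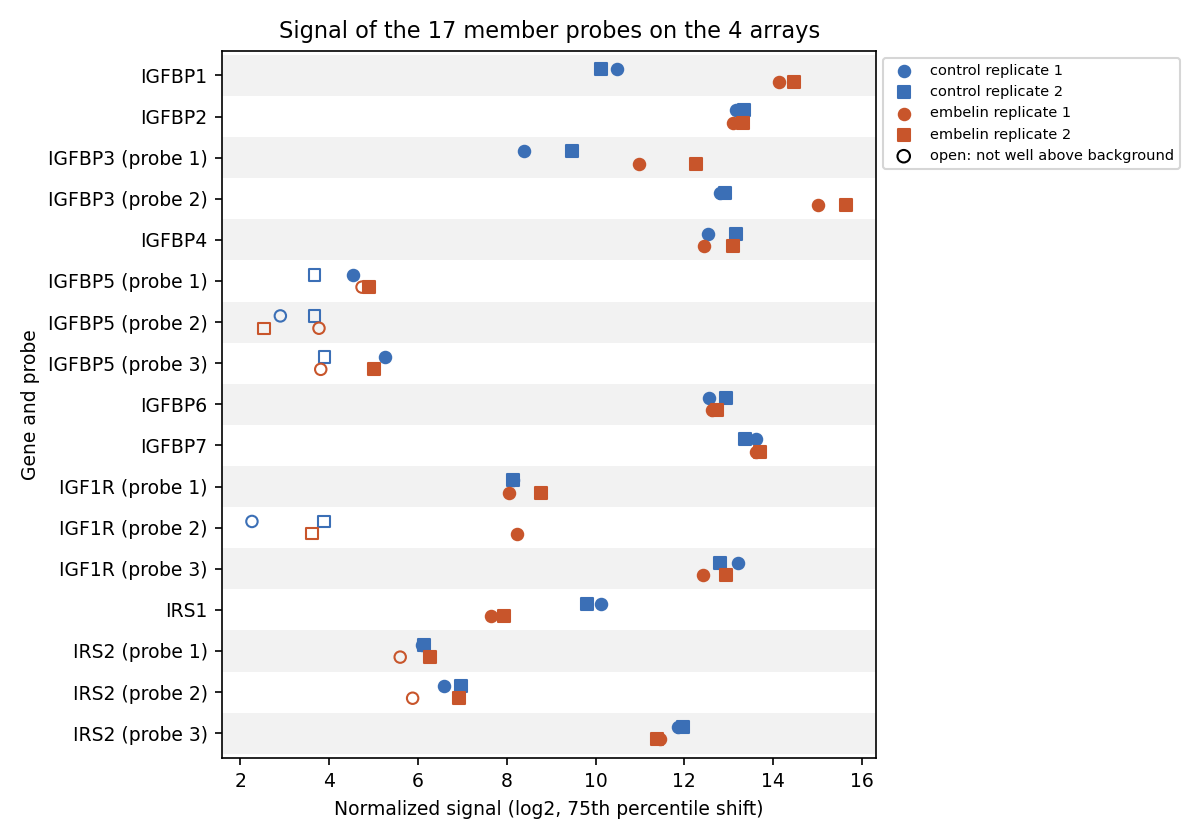
Normalized log2 signal of the 17 member probes on the 4 arrays, with controls in blue, embelin in orange, circles for replicate 1, squares for replicate 2 and open symbols for arrays on which the probe was not well above background. The embelin arrays lie above 14 for IGFBP1 against 10.48 and 10.13 in the controls and below 8 for IRS1 against 10.12 and 9.81, while the 3 probes of IGFBP5 lie at 5.26 or lower.

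IGFBP1, which binds both growth factors and is secreted mainly by liver and decidua in the body, gave a normalized log2 signal of 10.48 and 10.13 in the controls and of 14.14 and 14.48 in the embelin samples. The samples of each group lay close together, the groups were far apart, and the probe was well above background on all 4 arrays. The difference was 4.00 on the log2 scale (SE 0.24, 95% interval 3.36 to 4.65, n = 2 and 2), with an adjusted p of 0.0258 by limma with Benjamini-Hochberg adjustment. In control replicate 1 and embelin replicate 2 (pair A), 66.7% and 66.4% of probes were well above background. In control replicate 2 and embelin replicate 1 (pair B), the shares were 50.3% and 51.2%. No label gives this split. The median local background does not show it, at 24 and 23 in the controls and 25 and 25 with embelin. IGFBP1 differed by 4.00 in pair A and by 4.00 in pair B. IGFBP1 lost its call under 8 of 15 other processings, which left dim probes in, used the methods' t-test, fitted either block or left out 1 array, and its direction never changed. Without any 1 array it was not called, with differences of 3.83 to 4.17 and adjusted p of 0.0628 to 0.198 by limma.

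IGFBP3 was read by a pair of probes. On probe 2, the brighter one, the signal was 12.81 and 12.91 in the controls and 15.01 and 15.65 in the embelin samples, on the log2 scale. Both embelin samples were clearly higher, and they differed more from each other than the controls did. The difference was 2.47 (SE 0.28, 95% interval 1.71 to 3.23), with an adjusted p of 0.0529 by limma with Benjamini-Hochberg adjustment over all probes. When 1 probe stood for each gene the same difference had an adjusted p of 0.0469 by limma. This probe thus lies close to the threshold, and its call depended on the processing. It also passed after normexp background correction (adjusted p 0.0233 by limma), with all 4 arrays required above background (0.0208) and with trend and robust moderation (0.00344). It was not called under the other 11 of 15 processings, among them quantile normalization (0.0658), the deposited value table (0.0695) and each removal of 1 array (0.11 to 0.213 by limma), and its difference stayed between 2.15 and 2.79 throughout.

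Probe 1 of IGFBP3 gave 8.38 and 9.46 in the controls and 10.97 and 12.26 in the embelin samples. The groups did not overlap, but the spread within each group was wide. The difference of 2.70 (SE 0.60) had an adjusted p of 0.134 by limma. In pair A the difference on this probe was 3.89 and in pair B 1.51, and on probe 2 it was 2.84 and 2.10. IGFBP1 and IGFBP3 are neighbours in the genome, and both probes of IGFBP3 and that of IGFBP1 were higher on both embelin arrays.

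The 4 further secreted binding proteins were well above background on all arrays and differed little. IGFBP2, another carrier with a preference for IGF2, gave 13.17 and 13.35 in the controls and 13.10 and 13.32 with embelin, a difference of -0.05 (95% interval -0.58 to 0.48). IGFBP4, which restrains growth factor action until the protease PAPPA cleaves it, gave 12.53 and 13.17 against 12.45 and 13.10, and the difference was -0.08 (95% interval -1.04 to 0.88). In both genes the groups overlapped almost fully.

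IGFBP6, which binds IGF2 far more tightly than IGF1, gave 12.56 and 12.95 in the controls and 12.62 and 12.74 with embelin, a difference of -0.07 (95% interval -0.67 to 0.52). IGFBP7, a relative that binds the growth factors weakly and also binds insulin, gave 13.62 and 13.37 in the controls and 13.61 and 13.70 with embelin, a difference of 0.16 (95% interval -0.37 to 0.68). The interval of IGFBP4 reaches just past a 2-fold fall, and those of IGFBP2, IGFBP6 and IGFBP7 stay within 2-fold in both directions. The differences of IGFBP2, IGFBP4 and IGFBP6 changed sign when single arrays were left out. IGFBP5, a binding protein that sticks to extracellular matrix and lies next to IGFBP2 in the genome, was read by 3 probes at 2.53 to 5.26 over all arrays. None of the 3 was well above background on both arrays of a group, so that no fold is given.

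**Figure D2:**
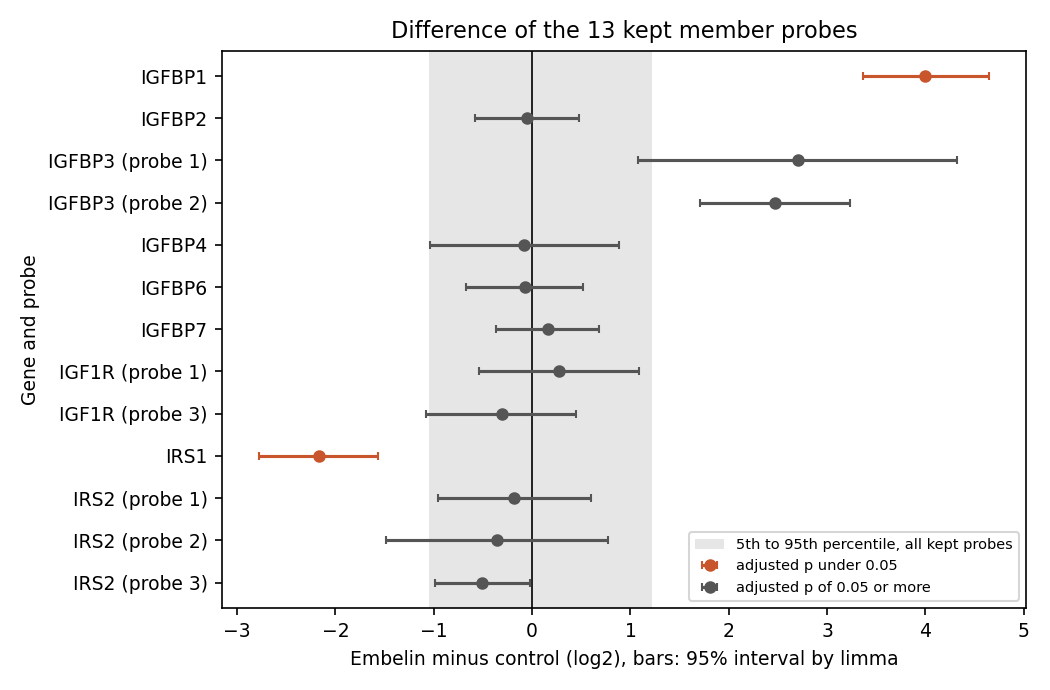
Difference between embelin and control on the log2 scale for the 13 tested member probes, with 95% intervals by limma, over a grey band from the 5th to the 95th percentile of all kept probes (-1.05 to 1.22). IGFBP1, both IGFBP3 probes and IRS1 lie outside the band, and 9 probes lie inside it.

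IGF1R, the tyrosine kinase receptor for both growth factors, was read by 3 probes, and the tested pair differed in opposite directions. Probe 3 gave 13.20 and 12.80 in the controls and 12.42 and 12.95 with embelin, a difference of -0.31 (SE 0.28, 95% interval -1.08 to 0.45). Probe 1 gave 8.13 and 8.13 in the controls against 8.04 and 8.77, a difference of 0.27 (SE 0.30, 95% interval -0.54 to 1.09). Neither was called, and on both the groups overlapped.

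IRS1, the docking protein that passes the signal of the insulin and IGF1 receptors to PI3 kinase, gave 10.12 and 9.81 in the controls and 7.65 and 7.94 with embelin. Both embelin samples were lower, and all 4 arrays were well above background. The difference was -2.17 on the log2 scale (SE 0.22, 95% interval -2.78 to -1.57), with an adjusted p of 0.0465 by limma with Benjamini-Hochberg adjustment, close to the threshold. It was -2.18 in pair A and -2.17 in pair B. IRS1 lost its call under 11 of 15 other processings, each removal of 1 array among them. Others were quantile normalization (adjusted p 0.0577 by limma), the deposited value table (0.0623) and outlier spots kept (0.0607). Its direction was the same under all 15, with differences of -2.33 to -1.80, and of -2.33 to -2.02 when 1 array was removed.

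IRS2, the related docking protein that is prominent in liver and in cancer cells, differed less. Its brightest probe, probe 3, gave 11.86 and 11.98 in the controls and 11.45 and 11.38 with embelin. The embelin samples were lower without overlap, and the difference of -0.51 (SE 0.18, 95% interval -0.99 to -0.02) had an adjusted p of 0.264 by limma. Probe 1 of IRS2 differed by -0.18 (95% interval -0.96 to 0.60) and probe 2 by -0.36 (95% interval -1.49 to 0.77), each well above background on 3 of 4 arrays. Whether IRS1 and IRS2 differed from each other in their response was not tested.

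**Figure D3:**
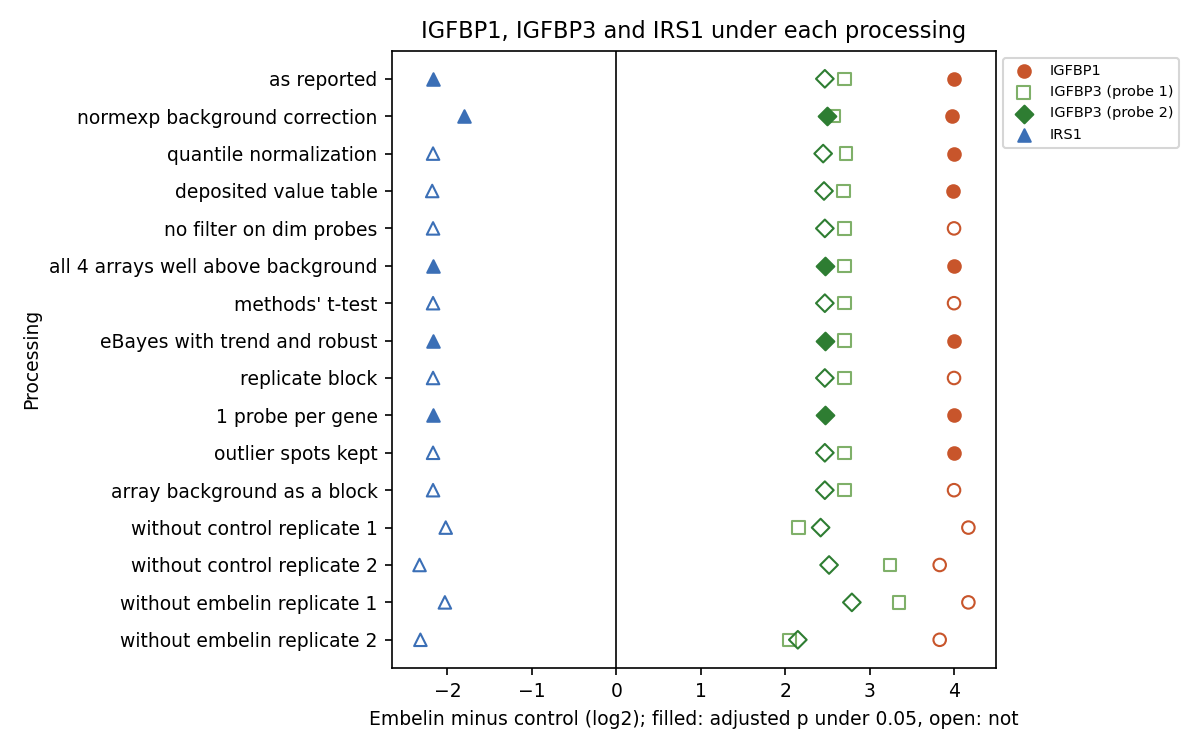
Difference between embelin and control on the log2 scale for IGFBP1, both probes of IGFBP3 and IRS1 as reported and under 15 other processings, with filled symbols where the adjusted p was under 0.05. IGFBP1 stays between 3.83 and 4.17 and IRS1 between -2.33 and -1.80. Filled symbols are absent from the last 4 lines, which leave out 1 array each. They are also absent for no filter on dim probes, the methods' t-test, the replicate block and the block for pairs A and B. The figure labels this last block array background.

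The start regions of IGFBP3 and IRS1 are shown because these members differed in opposite directions. The 250 bases before each annotated start are from RefSeq (GRCh38.p14), both on the minus strand, and capitals mark each GC box, GGGCGG on either strand.
IGFBP3, chr7:45921273-45921522: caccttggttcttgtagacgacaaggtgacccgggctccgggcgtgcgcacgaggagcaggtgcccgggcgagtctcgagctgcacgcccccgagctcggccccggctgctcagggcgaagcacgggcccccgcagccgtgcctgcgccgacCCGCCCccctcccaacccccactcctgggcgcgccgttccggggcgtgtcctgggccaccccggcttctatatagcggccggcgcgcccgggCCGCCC
IRS1, chr2:226799821-226800070: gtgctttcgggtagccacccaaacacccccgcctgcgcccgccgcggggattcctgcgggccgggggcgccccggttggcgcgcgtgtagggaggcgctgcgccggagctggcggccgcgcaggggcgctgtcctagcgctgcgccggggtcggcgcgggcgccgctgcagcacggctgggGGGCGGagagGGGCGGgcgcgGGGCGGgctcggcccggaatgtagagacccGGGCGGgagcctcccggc
IGFBP3 holds 2 GC boxes and IRS1 holds 4, and 42.3% of the 27305 promoters in the table hold at least 1. Of the 10 members 8 were found in this table, without IGFBP1 and IGFBP7, and 7 of the 8 hold a GC box. The core of the insulin response element that FOXO factors bind, CAAAACA on either strand, was found in IRS2 alone among the 8, and in 4.34% of all promoters. The hypoxia response core ACGTG was found in IGF1R alone, against 18.7% of all promoters. The composite of ATF4 and C/EBP, TGATGNAA, was found in 0 of the 8 and in 3.19% of all. These matches describe letters in short windows only, and none of the motifs overlapped a different one.

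Around the members, the ligands and other receptors gave 0 calls among 4 tested probes of 13. IGF2 gave 8.88 and 9.21 in the controls and 9.10 and 9.20 with embelin on its brighter probe, a difference of 0.10 (SE 0.21, adjusted p 0.859 by limma). IGF1 was read by 4 probes, and none was well above background on both arrays of a group. INSR, the insulin receptor, differed by -0.15 (SE 0.44), and IGF2R, a receptor that clears IGF2, by -0.23 (SE 0.24) and 0.18 (SE 0.31) on its probes. The groups overlapped on each of the 4 tested probes. The 95% interval was widest for INSR, from -1.36 to 1.05, and leaves room for a 2-fold change either way.

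Among the proteases that cleave binding proteins and their inhibitors, 3 of 12 tested probes were called, all higher, and all 3 read stanniocalcins. STC2, which blocks the protease PAPPA, gave 10.03 and 10.55 in the controls and 15.30 and 15.78 with embelin on its brighter probe. That is a rise of 5.25 on the log2 scale (SE 0.30, adjusted p 0.0258 by limma), and its other probe rose by 3.60 (adjusted p 0.0320 by limma). STC1, a secreted relative that also inhibits PAPPA, gave 3.93 and 4.93 in the controls and 8.26 and 8.73 with embelin. That is a rise of 4.06 (SE 0.41, adjusted p 0.0463 by limma). Only the first control was well above background, so that the STC1 probe passed the filter through the embelin arrays alone. Its call, and with it the count of 3, therefore depends in part on the filter. The median of the list was 0.19. PAPPA itself, named after its values were seen, differed by 0.19 (SE 0.21) on its brighter probe, with overlapping groups.

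In the list of insulin and IGF signal transduction, 3 of 63 tested probes were called, all higher, and the median was -0.07. GRB10, an adaptor that binds the insulin and IGF1 receptors and restrains them, gave 11.91 and 12.09 in the controls and 14.26 and 14.37 with embelin on its brighter probe. Both groups were tight, and the rise was 2.32 (SE 0.19, adjusted p 0.0315 by limma), with 2.95 (SE 0.18, adjusted p 0.0258 by limma) on the other probe. TRIB3, a pseudokinase that binds AKT and is a target of ATF4 and CHOP, gave 15.27 and 15.49 in the controls and 17.36 and 17.35 with embelin, a rise of 1.97 (SE 0.19, adjusted p 0.0425 by limma). Its other probe differed by 2.51 with an adjusted p of 0.106 by limma.

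Of the 25 tested probes of genes that FOXO factors are known to regulate, IGFBP1 and CCNG2 were called, both higher. CCNG2, a cyclin that holds back the cell cycle, gave 10.12 and 9.79 in the controls and 11.88 and 11.98 with embelin, a rise of 1.98 (SE 0.21, adjusted p 0.0483 by limma). The median of the list was 0.78 against -0.04 over all kept probes, and 9 of the 25 probes, that of IGFBP1 among them, were higher and 1 was lower at 2-fold with an unadjusted p under 0.05, beside 4.58% and 3.78% of all probes. Some of these probes were not well above background on control replicate 2 and passed the filter through the embelin arrays alone. They read PCK1 and ERBB3, and the dimmer tested probes of SESN1, SOD2 and RICTOR. Those of ERBB3, SESN1 and SOD2 are among the 9, and that of RICTOR is the median of 0.78. The tested ERBB3 probe gave 4.77 and 3.63 in the controls and 6.79 and 5.55 with embelin. Further ERBB3 probes were too dim to be tested. Those of its RefSeq transcripts were lower with embelin without overlap, such as 6.08 and 5.65 against 4.97 and 5.26, and on the remainder the groups overlapped. Probes of INSR and IRS2 passed through the control arrays alone. The median and the count therefore depend in part on the filter. This list includes IGFBP1 and IRS2, and it shares INSR and RICTOR with other lists. The genes related to or resembling binding proteins gave 0 calls among 11 tested probes with a median of -0.11, and the IGF2 mRNA-binding proteins gave 0 calls among 4 with a median of -0.59.

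**Figure D4:**
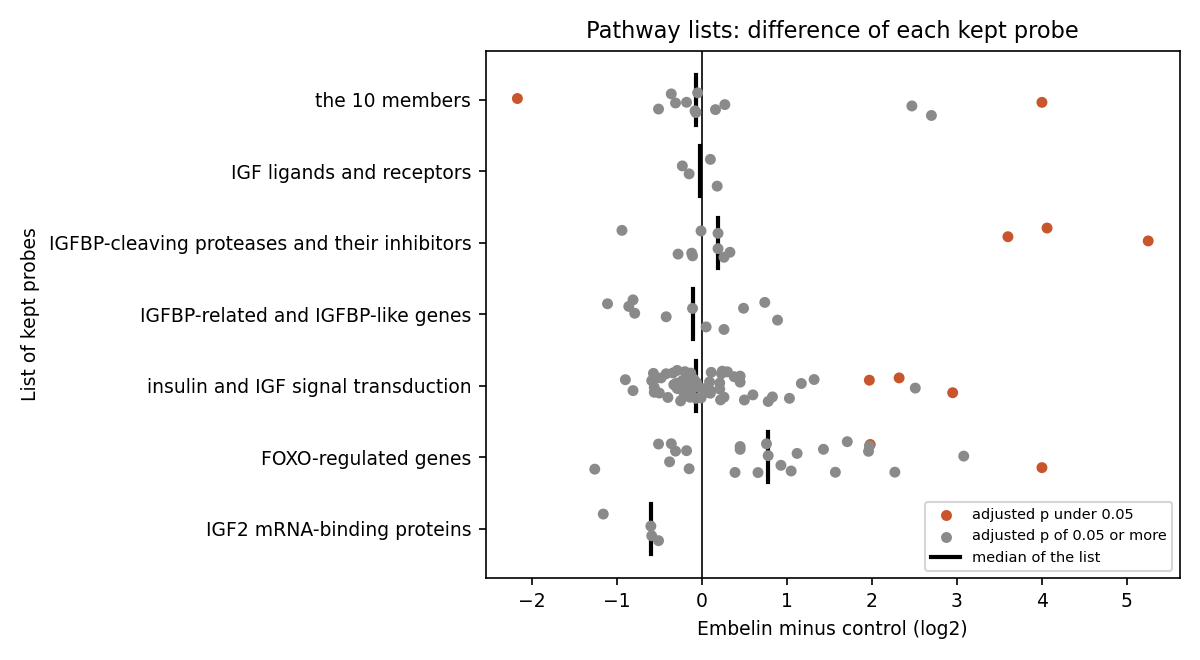
Difference between embelin and control on the log2 scale for each tested probe of the members and of 6 pathway lists, in orange where the adjusted p was under 0.05, with a black bar at the median of each list. The calls among the cleaving proteases and their inhibitors are the 3 stanniocalcin probes, of which that of STC1 was kept through the embelin arrays alone. The median of the FOXO list, in which some probes were kept through the embelin arrays alone, lies at 0.78.

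The arrays gave signal for epithelial markers, which do not single out A549, while some markers of other cell types were also read. All 5 epithelial markers were read by probes well above background on all 4 arrays, and 8 of their 9 probes were tested with 0 calls and a median of -0.27. Of 17 probes for markers of blood, endothelium and fibroblasts, 2 were well above background on all arrays, 1 of CD14 and 1 of COL1A1. The blood marker CD14 gave 9.39 and 9.68 in the controls and 9.06 and 8.80 with embelin, a difference of -0.60. The epithelial marker EPCAM gave 9.80 and 9.59 against 9.55 and 9.61. The summed linear signal of all 17 was 1050 and 1320 in the controls and 1470 and 1160 with embelin. The 5 of them that were tested had a median difference of 1.30, against -0.04 over all kept probes, and 3 were higher at 2-fold with an unadjusted p under 0.05. These 3 were the probes of the fibroblast collagen COL1A1, which differed by 1.84, 1.78 and 1.30 on the log2 scale. The first of them was called, with 5.50 and 5.32 in the controls and 7.15 and 7.35 with embelin. The first 2 of them, and the tested probe of the blood marker CD3E, were not well above background on control replicate 2. They passed the filter through the embelin arrays alone, so that the call and the median depend in part on the filter. The other fibroblast markers, DCN and LUM, were well above background on 0 arrays and 1 array. The part of COL1A1 in the results on the members was not tested. Before normalization the 75th percentile of intensity was 601.5 to 739.1 over the arrays, and 50.3% to 66.7% of probes were well above background. By the last number of the slide code, the controls sat at positions 4 and 1 and the embelin samples at positions 2 and 3. Place on the slide and treatment can therefore not be told apart. Whether the arrays lay in the same row was not determined. With 2 samples a group the smallest two-sided p of an exact permutation test is 0.333, and every call therefore rests on the spread that limma shares between probes.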

How the data were processed

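Single-colour arrays of 2 control and 2 embelin samples were used. The authors deposited spot intensity values from Agilent Feature Extraction 10.7.3.1 (per the file headers), background-subtracted and detrended but not normalized between arrays, and a value table with the same intensities averaged per probe. The log2 signals were shifted here to a common 75th percentile, spots marked as outliers were left out, and replicate spots were averaged. A probe was kept if both control arrays or both embelin arrays were well above background (26146 of 50238). Groups were compared with limma 3.58.1 in R 4.3.3 (prior of 2.31 degrees of freedom) with Benjamini-Hochberg adjustment over all 26145 probes with a test. The fit was also run on simulated arrays. These drew their spread from the fit's own estimate and held no pairs, so that the run cannot vouch for the calls on the real arrays. Tables were made in Python with pandas and scipy.

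The members, the pathway lists, the markers and the motifs were chosen with earlier results of these data known, so that none is independent support. Named genes were all members, the called genes of each list (at most 5), IGF1, IGF2, INSR and IGF2R. The other processings were normexp background correction (offset 50), quantile normalization, the deposited value table, no filter on dim probes, eBayes with trend and robust, a filter on all 4 arrays, the replicate block, the methods' t-test, 1 probe per gene, outlier spots kept and each array left out. A block for pairs A and B, called the block for array background, was added after the values were seen. The arrays are few, which limits the precision of every value.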

Additional observations from a re-analysis of the deposited data

How the results depend on the processing

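IGFBP1, IGFBP3 and IRS1 kept their direction under all 15 other processings (14 for IGFBP3 probe 1, which did not stand for its gene), and 4 member probes (3 where 1 probe stood for each gene or by the methods' t-test) passed the 2-fold threshold with an unadjusted p under 0.05 in each. The adjusted calls moved more. Against 282 probes called in all, 2 member probes and 7 further probes of the pathway lists, limma called 839 probes in all after normexp correction, 768 with all 4 arrays above background, and 1296 in all and 16 in the lists with trend and robust moderation. The deposited value table gave 158 in all, 1 member and 4 in the lists, outlier spots kept gave 170, 1 and 4, and quantile normalization gave 1 member and 4 in the lists. No filter on dim probes, the methods' t-test, the replicate block and the block for pairs A and B gave 0 in all 3 counts. Their probes with an unadjusted p under 0.05 numbered 2944, 3696, 5281 and 3636. The calls were also lost on each removal of 1 array. The share of calls that were higher was 77% as reported, and 57.3% with trend and robust moderation, 62% with all 4 arrays above background and 84.1% with outlier spots kept.

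The replicate numbers do not pair the samples by any label. The deviations of same-numbered samples correlated at 0.214 over 25631 probes, across genes, which are not independent replicates, and the replicate block gave 0 calls. IGFBP1 had an adjusted p of 0.0764 and IRS1 of 0.0928 by limma with this block.

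Small log2 differences changed sign when single arrays were left out. IGFBP2 ranged from -0.16 to 0.06 and was above 0 without control replicate 2 (0.04) or embelin replicate 1 (0.06). IGFBP4 ranged from -0.41 to 0.25 and was above 0 without the same arrays (0.24 and 0.25), and IGFBP6 ranged from -0.27 to 0.12, with 0.12 without control replicate 2. IRS2 probe 1 ranged from -0.52 to 0.16 and IRS2 probe 2 from -0.89 to 0.16, both highest without embelin replicate 1. IGF1R probe 1 ranged from -0.09, without embelin replicate 2, to 0.64. After normexp correction IRS2 probe 1 turned to 0.02. The cause was not tested. A lone remaining array was assumed to vary like the 2 of the other group.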

Other observations

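One probe of IGF1R, probe 2, stood outside the test because it was well above background on 1 array alone. Its normalized log2 signal was 2.26 and 3.88 in the controls and 8.24 and 3.61 in the embelin samples. The array at 8.24, embelin replicate 1, also had the most spots marked as outliers, 743 against 47 to 296 on the others. Marked spots had been left out, so that the 8.24 itself does not come from a marked spot.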
